A study of Arabidopsis thaliana with 6 samples.

Results

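WRKY proteins are a large family of plant transcription factors, named after a conserved run of amino acids in their DNA-binding domain. They bind W boxes, short promoter elements that are frequent upstream of defence and senescence genes, and many WRKY genes are themselves switched on within hours of pathogen or herbivore attack. They act in a web downstream of MAP kinase cascades and salicylic acid, in which some members activate and others repress the same defence genes. The family was taken here as 60 listed loci, of which 6 had a probe set assigned to 1 gene, among 8200 such genes in all and 15177 probe sets tested.

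The question was whether transcripts of these genes differ in leaves that received saliva of the green peach aphid (Myzus persicae). Rosette plants of wild-type Arabidopsis thaliana, accession Col-0, were 3 weeks old. In the saliva group, leaves were infiltrated through a needleless syringe with sucrose and amino acid diet on which aphids had fed for 24 h. The protocol gives 50 aphids on 50 µL of diet, with the diet of 20 aphids collected for the treatment. The control group received the same diet from cups with 0 aphids, so leaves of both groups were infiltrated with diet. Leaves without infiltration are not analysed here, so an effect of infiltration shared by both groups cannot be seen. Each sample pooled 18 leaves from 6 plants at 24 h, and 3 repeats gave 3 saliva and 3 control samples, each on 1 Affymetrix ATH1 array. Saliva and control plants shared pots, and each repeat was treated as a pair.

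The 6 measured genes came from 4 of the subgroups into which the family is divided by its WRKY domains. They were WRKY1 (AT2G04880, listed as ZAP1) and WRKY20 (AT4G26640) of group I, WRKY6 (AT1G62300) and WRKY47 (AT4G01720) of group IIb, WRKY22 (AT4G01250) of group IIe and WRKY53 (AT4G23810) of group III. Group I gave 2 of 14 listed loci, group IIb 2 of 6, group IIe 1 of 7 and group III 1 of 9. Groups IIa, IIc and IId, with 3, 14 and 7 listed loci, had 0. The other 54 loci, which include the defence regulators WRKY33, WRKY40, WRKY18 and WRKY70, were not paired with a probe set by the annotation used here. A further 6513 tested probe sets carry no gene in that annotation and may hold some of them. Others may have no probe set among the 15236 with deposited values, to which all shares given here are limited. The state of the 54 loci is thus unknown here, and the 6 genes do not stand for the family.

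None of the 6 WRKY genes was called different between saliva and control leaves, judged against the spread of the pair differences. In the paired limma fit, 0 of 6 were higher and 0 of 6 were lower at a Benjamini-Hochberg adjusted p under 0.05, where the background over all probe sets was 0% in either direction. At an unadjusted p under 0.05 there were 0 of 6, beside a background of 11% (1674 of 15177). Mean log2 differences, saliva minus control, lay between -0.15 for WRKY22 and 0.26 for WRKY47, and 3 of 6 were above 0 (49.8% over all probe sets). The 95% intervals of all 6 genes held 0, and 0 of 6 reached a 2-fold difference in either direction. A p that misses the threshold does not show that a gene stayed the same, and the intervals below give the sizes that the 6 arrays leave possible.

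**Figure D1:**
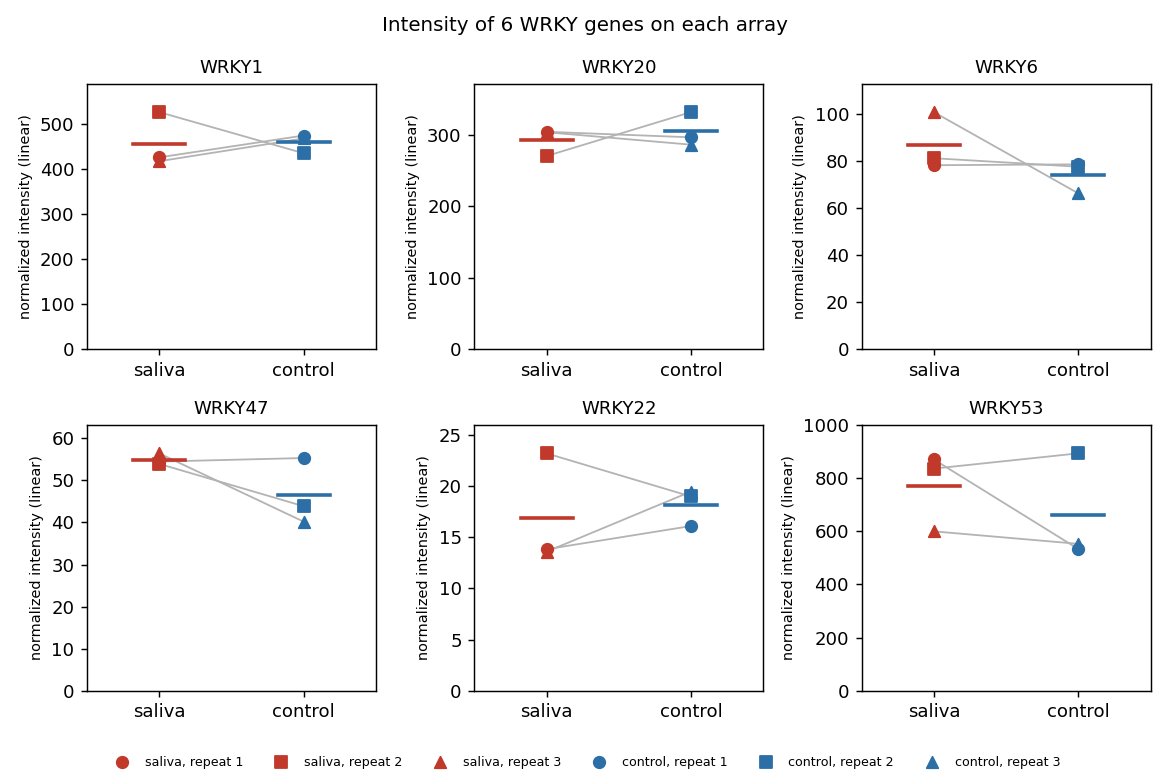
Normalized intensity (linear scale, from 0) of the 6 WRKY genes on the 3 saliva and 3 control arrays. Grey lines join the arrays of a pair, short bars are linear group means, and the saliva and control values overlap in each panel.

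WRKY53 is an activator early in leaf senescence and is known as an early gene of defence signalling. Its intensity was 870.35, 836.06 and 599.76 in saliva leaves of repeats 1, 2 and 3, against 533.31, 893.44 and 552.77 in control leaves. The highest control array, that of repeat 2, lay above every saliva array, and the saliva array of repeat 3 was close to the lower controls. The log2 differences of the pairs were 0.71, -0.096 and 0.12. Their mean was 0.24 ± 0.42 (SD, n = 3 pairs; limma adjusted p = 0.667), with a 95% interval from -0.24 to 0.72. That interval runs from 0.849-fold to 1.65-fold. Among the controls alone, the highest array was 1.68-fold above the lowest, a gap that includes differences between repeats. The mean saliva to control ratio, taken within pairs, was 1.18. The difference rests on repeat 1, as the mean was 0.011 without that pair, 0.41 without repeat 2 and 0.31 without repeat 3.

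WRKY6 is induced in senescing and infected leaves and represses the phosphate exporter gene PHO1 when phosphate is sufficient. It read 78.27, 81.24 and 100.83 in saliva leaves, against 78.63, 77.62 and 66.31 in control leaves. The arrays of repeats 1 and 2 were nearly level, and repeat 3 held both the highest saliva value and the lowest control value. Pair differences were -0.0066, 0.066 and 0.60, with a mean of 0.22 ± 0.33 (SD, n = 3 pairs; limma adjusted p = 0.643) and a 95% interval from -0.18 to 0.62. The mean was 0.030 without repeat 3, 0.30 without repeat 2 and 0.34 without repeat 1, so the value came almost wholly from pair 3.

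WRKY47 belongs to the same subgroup as WRKY6 and has been tied to cell wall genes under aluminium stress. It had 54.48, 53.94 and 56.44 in saliva leaves, against 55.33, 43.87 and 40.2 in control leaves. The saliva arrays were close together, 1.05-fold apart at most, while the controls spread over 1.38-fold, and the control array of repeat 1 fell inside the saliva range. Pair differences were -0.022, 0.30 and 0.49, with a mean of 0.26 ± 0.26 (SD, n = 3 pairs). This was the smallest p among the 6 genes, yet 3007 other probe sets had a smaller one (limma adjusted p = 0.525). The 95% interval ran from -0.080 to 0.59, or from 0.946-fold to 1.51-fold. The mean was 0.14 without repeat 3 and 0.23 without repeat 2. Without repeat 1 it was 0.39, the value within the larger of the array batches that the raw file names in the labels set apart.

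WRKY22 acts downstream of a MAP kinase cascade in flagellin perception, and mutants in it are known to support fewer green peach aphids. It read low on every array, with 13.84, 23.22 and 13.6 in saliva leaves, against 16.11, 19 and 19.48 in control leaves. The saliva array of repeat 2 was the highest of the 6 arrays and the other saliva arrays were the lowest, so the saliva group enclosed the controls. Pair differences were -0.22, 0.29 and -0.52, with a mean of -0.15 ± 0.41 (SD, n = 3 pairs; limma adjusted p = 0.807) and a 95% interval from -0.62 to 0.32. The lowest intensity of any probe set on any array was 3.23. Without repeat 3 the mean was 0.035, on the other side of 0, and it was -0.37 without repeat 2 and -0.11 without repeat 1.

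WRKY1, also called ZAP1, and WRKY20 are group I members, which carry a pair of WRKY domains. WRKY1 had 426.13, 526.62 and 417.58 in saliva leaves, against 474.62, 435.35 and 468.23 in control leaves. As for WRKY22, the saliva array of repeat 2 lay above all controls and the other saliva arrays below them. Pair differences were -0.16, 0.27 and -0.17, with a mean of -0.015 ± 0.25 (SD, n = 3 pairs; limma adjusted p = 1.00) and a 95% interval from -0.34 to 0.31. WRKY20 read 304.54, 270.6 and 303.93 in saliva leaves, against 296.78, 332.07 and 286.5 in control leaves. Its saliva array of repeat 2 was the lowest of all and its control array of repeat 2 the highest, while the other pairs were nearly level. Pair differences were 0.037, -0.30 and 0.085, with a mean of -0.058 ± 0.21 (SD, n = 3 pairs; limma adjusted p = 0.904). The 95% interval, from -0.35 to 0.23, was the narrowest of the 6. Without repeat 1 or without repeat 3 the mean of WRKY1 was 0.055 or 0.060, and without repeat 2 that of WRKY20 was 0.061, each across 0. The mean of WRKY1 was -0.16 without repeat 2, and that of WRKY20 was -0.11 without repeat 1 and -0.13 without repeat 3.

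**Figure D2:**
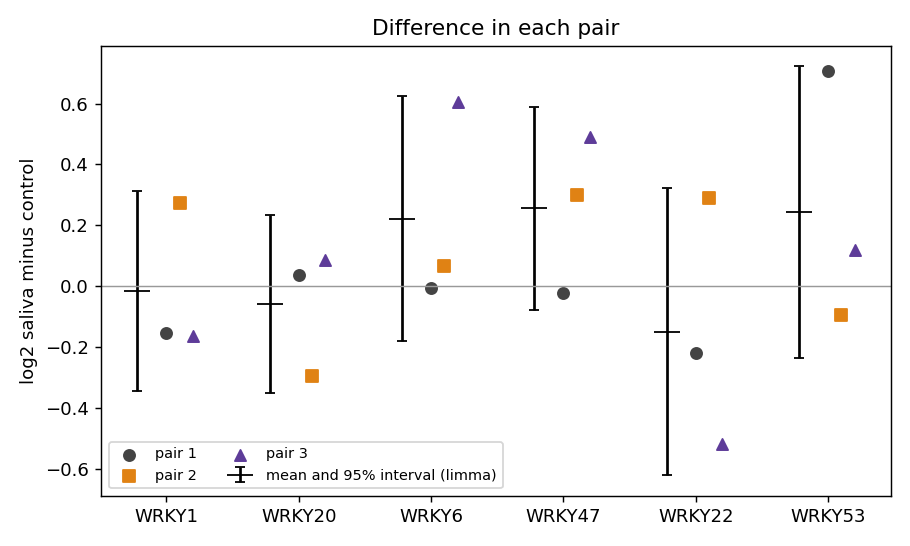
Log2 saliva minus control of each pair (symbols), with the limma mean and 95% interval (black bar), for the 6 WRKY genes. Each gene has at least 1 pair on either side of 0, and all 6 intervals hold 0.

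The direction of the 6 genes changed from pair to pair. Of the 6, 2 were above 0 in pair 1, 4 in pair 2 and 4 in pair 3, where the background over all probe sets was 46.8%, 56% and 50.8%. Moving the same way in all 3 pairs was seen for 0 of 6, beside a background of 32.3%. Groups that did not overlap were found for 0 of 6, beside a background of 16.2%. With 6 genes these counts are too small to call the family different from other genes, and no test was made of the list. The median log2 difference of the 6 was 0.10, beside a median of -0.00056 over all probe sets tested. Without repeat 1 or repeat 3 it was 0.033 or 0.047.

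The spread between pairs was on the larger side for these genes. The SD of the log2 difference over pairs ranged from 0.21 for WRKY20 to 0.42 for WRKY53, with a median of 0.30 beside 0.18 over all probe sets. All 6 SDs exceeded that general median. The SD of WRKY53 was larger than that of 88.5% of probe sets and the SD of WRKY22 larger than that of 88%. The size of the mean difference was less extreme, larger than in 81.5% of probe sets for WRKY47, 79.6% for WRKY53 and 76.7% for WRKY6, and in 12% for WRKY1. SD also depends on the intensity of a probe set, and its part in these ranks was not tested.

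**Figure D3:**
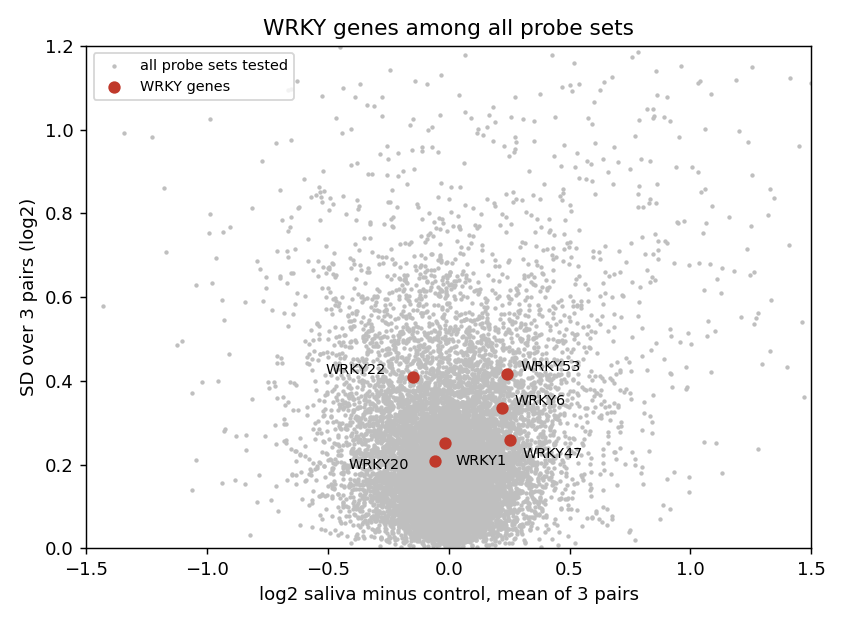
Mean log2 saliva minus control (x axis) against the SD over 3 pairs (y axis, log2) for all probe sets tested (grey) and the 6 WRKY genes (red). The WRKY genes lie inside the grey cloud, with SDs between 0.21 and 0.42, and 72 probe sets fall outside the axes.

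Levels of the 6 genes were also compared between repeats, over both diets. For 3 of 6 genes, WRKY1, WRKY22 and WRKY53, the range of the 3 repeat means was wider than the size of the saliva difference, which also held for 69.4% of all probe sets. WRKY53 had mean log2 intensities of 9.41, 9.76 and 9.17 in repeats 1, 2 and 3, a range of 0.59. That range was wider than in 96.2% of probe sets. WRKY22 had 3.90, 4.39 and 4.02, a range of 0.49 and wider than in 93.6% of probe sets. Both repeat means were highest in repeat 2, but the order depended on the diet, as WRKY53 was highest in repeat 1 in saliva leaves and WRKY22 in repeat 3 in control leaves. The remaining ranges were 0.20 for WRKY47, 0.11 for WRKY1, 0.060 for WRKY6 and 0.027 for WRKY20. In the F test of the repeats in the same limma fit, 0 of 6 genes passed at an adjusted p under 0.05 (background 0%) and 0 of 6 at an unadjusted p under 0.05 (background 4.92%). The smallest p was that of WRKY53 (limma adjusted p = 0.931). Repeat 1 was also a separate array batch by its raw file names, so its repeat and its batch cannot be told apart.

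Few other genes of the WRKY pathway could be read. Of 8 listed protein partners of WRKY factors 1 was measured, and of 17 genes of salicylic acid synthesis and response 2 were measured. Of these 3 genes, 0 passed in either direction, with the background again at 0%. The lists of MAP kinase and calcium-dependent kinase inputs, of camalexin and ethylene genes bound by WRKY33, of senescence and phosphate genes downstream of WRKY6 and WRKY53, and of trichome and seed development had 0 measured members.

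GRX480 is a glutaredoxin induced by salicylic acid that interacts with TGA factors. It had 256.39, 261.01 and 276.17 in saliva leaves, against 174.41, 338.6 and 223.08 in control leaves. As for WRKY53, repeat 2 gave the highest control and repeat 1 the lowest. The pair differences of GRX480 were 0.56, -0.38 and 0.31, with a mean of 0.16 ± 0.48 (SD, n = 3 pairs; limma adjusted p = 0.822). SAG101, a partner of EDS1 in immune signalling upstream of salicylic acid, had 97.49, 75.92 and 75.13 in saliva leaves, against 65.64, 81.63 and 57.98 in control leaves. Its pair differences were 0.57, -0.10 and 0.37, with a mean of 0.28 ± 0.35 (SD, n = 3 pairs; limma adjusted p = 0.570). Like WRKY53 and WRKY20, both genes were above 0 in pairs 1 and 3 and below 0 in pair 2. WRKY1, WRKY6, WRKY47 and WRKY22 did not have this order of signs. It was seen after the values were known, and its share among all probe sets was not counted.

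IKU1 is a VQ-motif protein that works with WRKY10 in seed growth. It had 71.7, 65.35 and 63.36 in saliva leaves, against 46.38, 66.23 and 65.52 in control leaves. The control array of repeat 1 stood below the other arrays, which were close together. Pair differences were 0.63, -0.019 and -0.048, with a mean of 0.19 ± 0.38 (SD, n = 3 pairs; limma adjusted p = 0.725). Pair 1 was the highest pair for 1 of the 6 WRKY genes, WRKY53, beside 34% of all probe sets. It was also the highest for GRX480, SAG101 and IKU1, as was seen after the values were known. The guard cell marker FAMA also had its highest difference, 0.57, in pair 1, with 44.26 on the repeat 1 control as its lowest array. The phloem marker SWEET11 went the other way, with its lowest difference, -0.53, in pair 1 and its highest array, 5149.02, on the repeat 1 control. Among the leaf markers given below, pair 1 was the highest pair for LHCB4.1, PSAN and RCA and the lowest for PSBW. The part of that control array in the WRKY53 value was not tested.

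**Figure D4:**
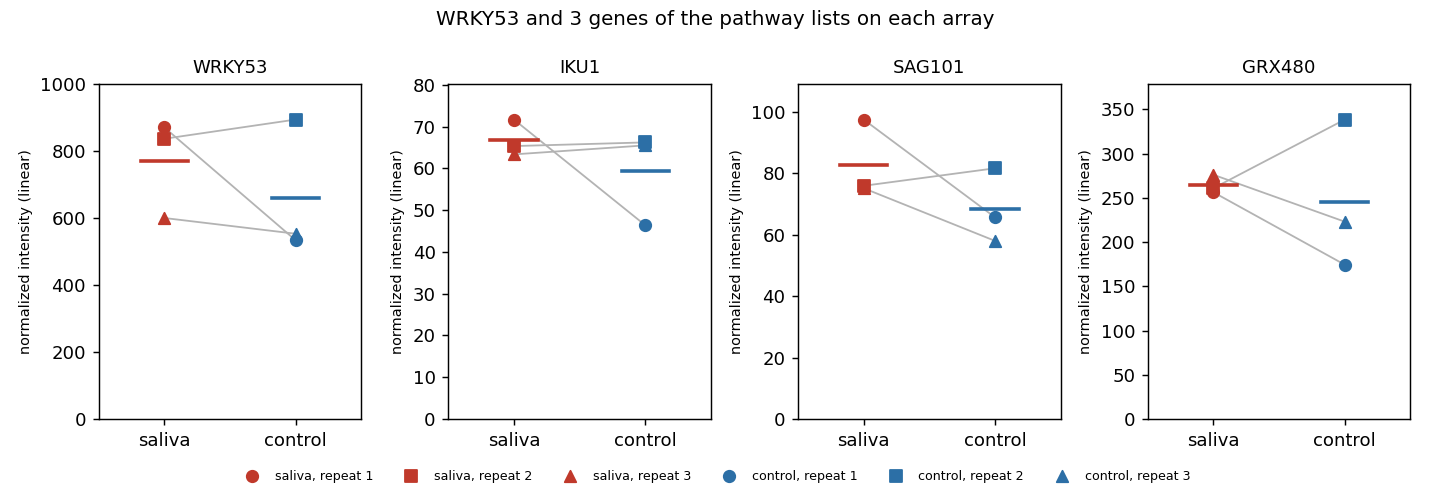
Normalized intensity (linear scale, from 0) of WRKY53, IKU1, SAG101 and GRX480 on each array, with lines joining pairs and short bars at linear group means. Repeat 1 (circles) has the steepest fall towards the control in all 4 genes.

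In the authors' deposited table, the folds of saliva over control were 1.17 for WRKY6 and WRKY53 and 1.18 for WRKY47. The same authors' deposited table gave 0.994 for WRKY1, 0.960 for WRKY20 and 0.928 for WRKY22. For the 6 genes these folds match ratios of the linear group means. The folds given above for the fit here come from mean log2 differences within pairs, by which WRKY22 was 0.902. Its paired false discovery rates ran from 0.199 for WRKY47 to 0.962 for WRKY1, and its unpaired rates from 0.501 to 0.994. By the paired rate under 0.05 of the authors' deposited table, 0 of 6 WRKY genes were called, beside a background of 3.05% (463 of 15177).

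The arrays were on a like scale, with median intensities from 139.2 to 146.8. Leaf tissue was checked with 4 measured markers of 10 listed, LHCB4.1, PSAN, PSBW and RCA, whose lowest reading on any array was 12431.31. Their summed intensity was 84307 to 88171 in saliva leaves and 88440 to 93741 in control leaves, ranges that did not overlap. Taken singly, the groups did not overlap for PSAN and PSBW, as for 16.2% of all probe sets, but overlapped for LHCB4.1 and RCA. LHCB4.1, PSAN and PSBW were lower with saliva in all 3 pairs, with mean log2 differences of -0.070, -0.15 and -0.091. Moving the same way in all 3 pairs held for 32.3% of all probe sets. The mean log2 difference of RCA was 0.00087, with pairs on either side of 0, and 0 of 4 markers passed the limma test. The part of the difference in summed intensity in the WRKY values was not tested. For other cell types, the phloem sugar transporter SWEET11 had a mean log2 difference of -0.24 ± 0.30 and the guard cell factor FAMA 0.19 ± 0.39 (SD, n = 3 pairs), and 0 of these 2 passed. Markers of xylem, of meristem and flower, and of root had 0 measured members. In whole leaves, a change in the share of cells that hold a transcript and a change of its amount per cell cannot be told apart.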

How the data were processed

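RNA of 3 saliva and 3 control leaf samples was hybridised to ATH1 arrays. The deposited intensity of each probe set had been normalized by the authors and is linear. The submitters' processing notes name GCRMA, GCOS and limma, whose order and versions are not given in the sources used here. A deposited fold (a ratio of treatment over control) and paired and unpaired q-values are also in the authors' table. The deposited tables differed in 0 intensity cells, and 0 columns of per-sample values were left unused. Precision is limited by the number of arrays, 6.

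Of the 15236 probe sets with deposited values, 59 Affymetrix controls were left out. Log2 intensities were fitted here with limma 3.58.1 in R 4.3.3, without a pseudocount and with the repeat as a block. The Benjamini-Hochberg adjustment ran over 15177 probe sets. The same fit gave the F test of the repeats. The script was tested on simulated data. The pairing follows the shared pots in the labels' protocols. Deviations from group means correlated across probe sets by -0.12, 0.15 and 0.10 within pairs 1, 2 and 3. Per the labels, the repeats were independent experiments on pooled leaves.

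Probe sets were named by the probe annotation, which gave 1 gene for 8330, several for 334 and none for 6513. Of the 8330, 8298 were found by gene number in RefSeq TAIR10.1. The WRKY loci matched 6 probe sets of 1 gene and 0 of several genes. Members and lists were chosen with earlier results of these data known. The rule for printing values of every array took the WRKY genes with the smallest p for saliva, which covered all 6, and up to 3 measured genes of each pathway list. Genes are given by locus, without coordinates, because no build is given for the arrays. Protein and promoter sequences were not used here.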

Additional observations from a re-analysis of the deposited data

How the results depend on the processing

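Counts of probe sets and of WRKY genes past the threshold were 0 in each direction in the paired fit and under each alternative run, with and without the pairing (no replicate block: 0 higher, 0 lower). The alternatives were no replicate block, a mean log2 floor of 4, an intensity trend, quantile normalization, median centring and each pair left out, and, chosen after seeing the data, the array batch as a block. The counts for the repeat effect were likewise 0 wherever that test could be run. With looser thresholds in the paired fit, 0 of 6 WRKY genes passed at an adjusted p under 0.1 and 0 of 6 at an unadjusted p under 0.05. Among the 9 alternatives, WRKY47 without replicate 1 was the lone WRKY gene with an unadjusted p under 0.05, and its limma adjusted p was 0.394 there, with a range from 0.394 to 0.911 over the alternatives. The median difference of the 6 genes was 0.10 without the replicate block, 0.085 after quantile normalization, 0.088 after median centring, and 0.033 to 0.15 with a pair left out. Leaving out a pair turned the sign of 3 genes, with ranges of -0.16 to 0.060 for WRKY1 (0.055 without replicate 1 and 0.060 without replicate 3), -0.13 to 0.061 for WRKY20 and -0.37 to 0.035 for WRKY22. The other ranges were 0.030 to 0.34 for WRKY6, 0.14 to 0.39 for WRKY47 and 0.011 to 0.41 for WRKY53; the cause was not tested. Each WRKY gene had 1 probe set, so averaging probe sets could not be run. WRKY22 read 13.6 to 23.22, where the lowest intensity of any array was 3.23, and it passed the mean log2 floor.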
